A study of Mus musculus with 6 samples.

Results

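The Elavl, Nova and Rbfox families are RNA-binding proteins that shape the messages of neurons, and 9 of their genes (Elavl1 to Elavl4, Nova1, Nova2 and Rbfox1 to Rbfox3) were followed in mouse embryoid bodies with and without stimulation of the hedgehog pathway. They were found as the 32 probe sets whose annotation names only 1 of these symbols, of 34945 probe sets with 1 symbol on an Affymetrix mouse whole-genome expression array, and they make up 9 of 18193 genes. The cells came from a mouse embryonic stem cell line with a transgene for FLAG-tagged Gli1 under the constitutive Rosa26 promoter, which all 6 cultures carried. Aggregates grew for 2 days in suspension and then for 3 days with 500 nM all-trans retinoic acid, either alone (RA, n = 3) or with 50 nM of the Smoothened agonist Ag1.3 (n = 3), which switches on hedgehog signalling within the cell. The series describes the triplicates as parallel cultures, so that RA replicate 1 pairs with Ag1.3 replicate 1 and so on, and a culture is a mixture of cell types of 1 line.

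Elavl proteins bind stretches rich in U, or in A and U, and keep the messages that hold them stable or change their splicing. Elavl1 (HuR) is made in nearly all cells, while Elavl2 (HuB), Elavl3 (HuC) and Elavl4 (HuD) are made mainly in neurons and appear as progenitors leave the cell cycle. Nova proteins regulate splicing of neuronal messages, Nova1 being best known from ventral spinal cord and hindbrain and Nova2 from cortex. Rbfox proteins bind UGCAUG next to exons and regulate their inclusion. Rbfox1 is made in neurons and muscle, Rbfox2 in many cell types, and Rbfox3 is the antigen NeuN, a marker of maturing neurons.

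Promoter windows, from 250 bases before to 50 after an annotated start, are shown for Elavl4, Elavl3, Nova2 and Elavl1. Elavl4 and Elavl3 had the largest log2 fold changes of intensity + 16. With 1 added in place of 16, Rbfox1 (1.06) and Rbfox3 (0.998) exceeded Elavl3 (0.97). Nova2 also rose, and the brightest probe set of Elavl1 did not pass the test. The windows are RefSeq sequences of GRCm38.p6, written 5′ to 3′ on the strand of the gene. Capitals mark CAGCTG and CAGATG, 2 forms of the E-box, the motif that proneural factors of the bHLH family bind. Other forms, such as CACCTG, were not searched and stay in lower case. The form CAGCTG reads alike on both strands. The form CAGATG was searched on both strands as well. They were picked with the results known.
Elavl4, chr4:110287478-110287777, minus strand: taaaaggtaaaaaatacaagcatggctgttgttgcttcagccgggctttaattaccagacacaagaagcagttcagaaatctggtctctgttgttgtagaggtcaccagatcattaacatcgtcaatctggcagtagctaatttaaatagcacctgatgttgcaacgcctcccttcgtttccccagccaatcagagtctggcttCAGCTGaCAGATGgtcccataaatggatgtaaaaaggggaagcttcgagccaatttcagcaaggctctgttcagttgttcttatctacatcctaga
Elavl3, chr9:22051974-22052273, minus strand: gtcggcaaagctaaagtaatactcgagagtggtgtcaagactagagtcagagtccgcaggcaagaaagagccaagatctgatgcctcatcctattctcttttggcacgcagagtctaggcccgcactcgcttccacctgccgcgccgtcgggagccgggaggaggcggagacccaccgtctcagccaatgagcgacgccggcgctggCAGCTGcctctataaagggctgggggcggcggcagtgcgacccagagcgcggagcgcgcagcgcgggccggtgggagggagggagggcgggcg
Nova2, chr7:18925638-18925937, plus strand: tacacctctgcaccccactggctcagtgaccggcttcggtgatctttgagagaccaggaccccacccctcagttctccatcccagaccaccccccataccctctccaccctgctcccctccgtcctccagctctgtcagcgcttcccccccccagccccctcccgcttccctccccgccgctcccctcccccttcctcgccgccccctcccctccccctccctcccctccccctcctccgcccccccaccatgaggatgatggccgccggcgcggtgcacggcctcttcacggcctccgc
Elavl1, chr8:4325051-4325350, minus strand: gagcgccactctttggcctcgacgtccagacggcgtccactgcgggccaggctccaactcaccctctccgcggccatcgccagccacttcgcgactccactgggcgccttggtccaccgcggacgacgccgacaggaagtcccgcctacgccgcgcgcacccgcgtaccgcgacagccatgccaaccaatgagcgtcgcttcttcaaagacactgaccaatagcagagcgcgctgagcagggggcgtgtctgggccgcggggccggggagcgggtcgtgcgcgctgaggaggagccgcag
The Elavl4 window held CAGCTG at position -46, counted from 0 at the start site. It held CAGATG at position -39. It is 1 of 4 annotated windows of Elavl4, and CAGCTG is in 2 of them, which overlap. In the Elavl3 window CAGCTG began at position -43. The Nova2 and Elavl1 windows held neither. Of the 17 windows of 8 member genes, several of them overlapping, 8 held CAGCTG, against 16.3% of all 32851 windows, and 3 held CAGATG, against 17.2%. By gene, 5 of the 8 held CAGCTG in a window, against 18.3% of all 27025 genes. For CAGATG it was 1 of the 8, Elavl4, against 19.2%. Elavl2, Elavl4 and Rbfox1 have more than 1 window, which gives more chances of a match. The genes with CAGCTG in a window were Elavl2, Elavl3, Elavl4, Nova1 and Rbfox1, so it was present in Nova1, which did not pass the test, and absent in Nova2 and Rbfox3, which did. A match of letters does not show that a factor binds there.

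With Ag1.3, 5 of the 9 genes rose and 0 fell in limma's test over 18193 genes (Benjamini-Hochberg adjusted p under 0.05), in which 1.08% of all genes rose and 0.324% fell. They were Elavl4, Elavl3, Rbfox1, Rbfox3 and Nova2. Elavl4 rose 3.24-fold and the other 4 between 1.75-fold and 1.87-fold, on the scale of intensity + 16. Each gene is read here by its brightest probe set. At an unadjusted p under 0.05 there were 6 of the 9, Elavl2 being the additional one, against 14.9% of all genes. The widely made family members Elavl1 and Rbfox2, and Nova1, did not pass. The median log2 fold change of the 9 was 0.81, against -0.01 for all genes. The arrays measured whole cultures, in which a larger number of cells of a type and more RNA per cell cannot be told apart.

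**Figure D1:**
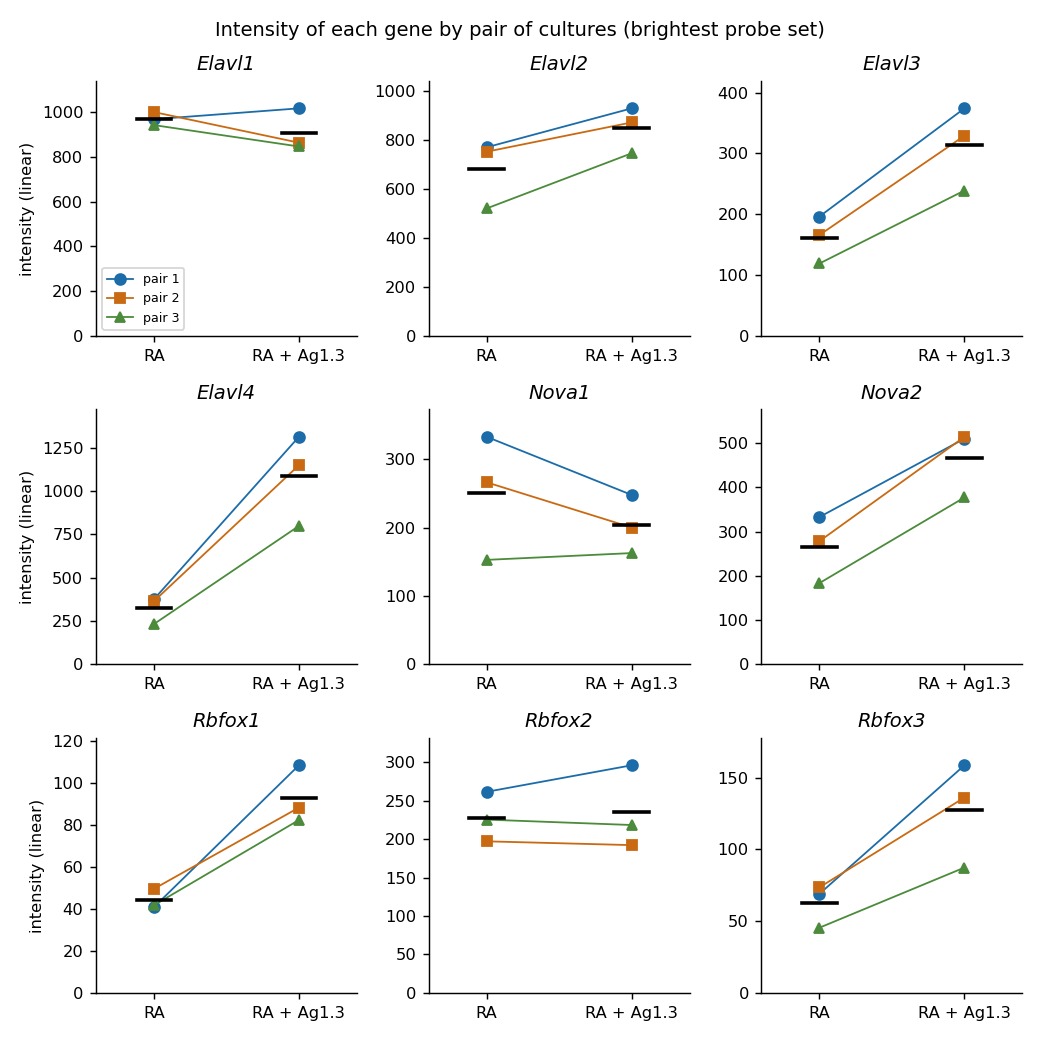
Deposited intensity (linear axis from 0) of the brightest probe set of each of the 9 genes in RA and RA + Ag1.3 cultures, with a line for each pair of parallel cultures and a black bar at the mean of 3. All 3 lines go up for Elavl2, Elavl3, Elavl4, Nova2, Rbfox1 and Rbfox3, and pair 3 is the lowest line for Elavl1, Elavl2, Elavl3, Elavl4, Nova1, Nova2 and Rbfox3.

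Among the neuronal Elavl genes, Elavl4, which promotes neurite growth by stabilising its target messages, had intensities of 376, 364 and 233 in the RA cultures and 1312, 1148 and 798 in the Ag1.3 cultures, in the order of the pairs, as in all such lists here (probe set 1428741_at). Every Ag1.3 culture read far above every RA culture, and replicate 3 was lowest in both groups. The means were 324 ± 79.5 and 1086 ± 262 (SD, n = 3 each), with a log2 fold change of 1.70 (SE 0.08, 95% interval 1.504 to 1.888, adjusted p = 0.00293 in limma). Elavl4 ranked 31 of 18193 genes by log2 fold change. Its other probe sets, 1452894_at and 1450258_a_at, gave 1.82 and 1.92, and all 3 passed in limma's test over 45037 probe sets (adjusted p = 0.00657, 0.00619 and 0.00619).

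Elavl3, the family member made in most young neurons, had intensities of 196, 166 and 119 in RA and 374, 329 and 239 with Ag1.3 (1435871_at). The groups did not overlap, and the change was nearly equal in the pairs, at 0.88, 0.92 and 0.92 on the log2 scale. Its log2 fold change was 0.91 (SE 0.07, adjusted p = 0.0112). The dimmer probe set 1455484_at gave 0.84. The dimmest, 1452524_a_at, gave 1.27, with RA values from 10.6 to 46.9 that reach into the range of control probe sets for which no spike was added (4.02 to 20.7). The groups of this probe set overlapped, as Ag1.3 replicate 3 (44.9) lay below RA replicate 1 (46.9). All 3 probe sets of Elavl3 passed over all probe sets.

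Elavl2, which is also made in germ cells, read 770, 752 and 521 in RA and 929, 872 and 746 with Ag1.3 (1421882_a_at). Each Ag1.3 culture was above its own RA partner, but Ag1.3 replicate 3 lay below RA replicates 1 and 2, so the groups overlapped. The log2 fold change was 0.33 (SE 0.09, 95% interval 0.10 to 0.55), with unadjusted p = 0.0133 and adjusted p = 0.189 in limma. Of the alternatives, only a prior variance that follows intensity brought Elavl2 past the threshold over genes. The probe sets 1421883_at and 1421881_a_at gave 0.47 and 0.35. The other 2, 1454454_at and 1433052_at, gave -0.07 and -0.02, with opposite signs in different pairs, so the 5 probe sets of Elavl2 did not read alike.

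The probe sets of Elavl1 disagreed in sign. Its brightest, 1448151_at, read 967, 999 and 941 in RA and 1016, 863 and 846 with Ag1.3, and the groups overlapped. The log2 fold change was -0.10 (95% interval -0.32 to 0.12, adjusted p = 0.689 in limma), and 1431037_a_at gave -0.09. In contrast, 1452858_at read 114, 110 and 80.9 in RA and 219, 159 and 133 with Ag1.3. The groups of this probe set did not overlap, and its log2 fold change was 0.65 (95% interval 0.39 to 0.91). It did not pass over all probe sets, with unadjusted p = 0.00105 and adjusted p = 0.0984 in limma. A further probe set of Elavl1, 1428653_x_at, also gave 0.65 with non-overlapping groups and adjusted p = 0.180. The first passed with a pseudocount of 64, among features at or above the median probe set, with the arrays scaled to the spikes and with a prior variance that follows intensity, and the second in the median filter and the prior variance settings. The suffix of 1428653_x_at marks probes that may match other transcripts. Both probe sets are assigned to Elavl1, so they are not independent. Of the 2 dimmest, 1445521_at gave 0.45 and was higher in all 3 pairs, without overlap between the groups. In limma it had unadjusted p = 0.0195 and adjusted p = 0.309, and 1 of its values lay in the range of the unspiked controls. The other, 1440464_at, gave -0.16 and was lower in all 3 pairs, with overlapping groups. Neither passed the threshold over all probe sets. Elavl1 is known to have messages that end at different polyadenylation sites, with the longest in neural cells. Where each probe set lies along the message was not analysed here, and whether end choice has a part in the disagreement was not tested.

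**Figure D2:**
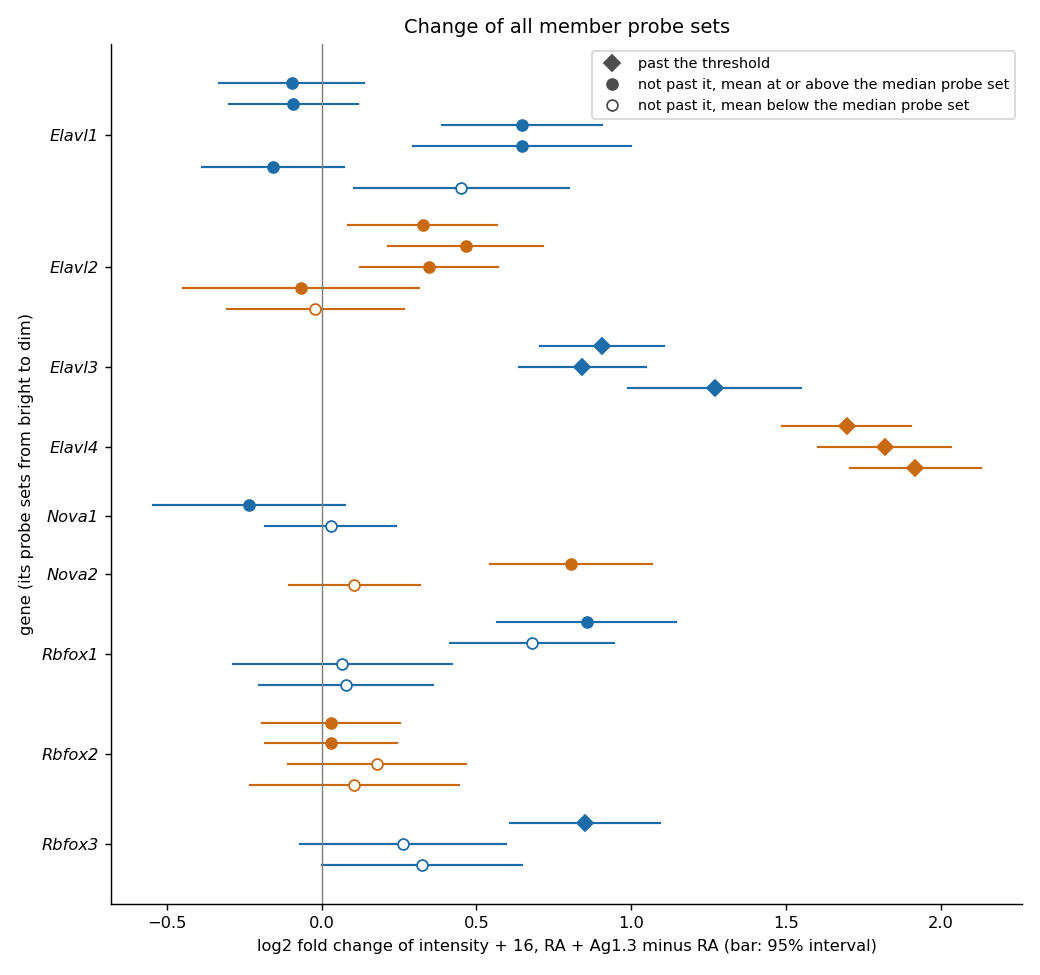
Log2 fold change of intensity + 16 (RA + Ag1.3 minus RA) for all 32 probe sets with limma's 95% interval, grouped by gene and ordered from bright to dim, colours alternating between genes. Diamonds are the 7 probe sets past the threshold over 45037, and open symbols have a mean below the median probe set (50.94). All probe sets of Elavl3 and Elavl4 lie above 0, while those of Elavl1 and Elavl2 lie on both sides.

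Of the splicing regulators, Nova2 read 333, 278 and 184 in RA and 510, 514 and 377 with Ag1.3 (1439192_at), without overlap between the groups. Its log2 fold change was 0.81 (SE 0.10, adjusted p = 0.0343 over genes). Over all probe sets the same values gave adjusted p = 0.0585, which did not pass. The other Nova2 probe set, 1439099_at, read 2.02 to 7.32 on the 6 arrays, no higher than the unspiked controls, and carries no level. Nova1 read 333, 266 and 153 in RA and 248, 200 and 163 with Ag1.3 (1426938_at). It was lower with Ag1.3 in pairs 1 and 2 and slightly higher in pair 3, with a log2 fold change of -0.24 (95% interval -0.54 to 0.07, adjusted p = 0.448). Its dim probe set, 1452245_at, gave 0.03.

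Rbfox3 (NeuN) read 69.0, 73.6 and 45.4 in RA and 159, 136 and 87.3 with Ag1.3 (1436450_at). The groups did not overlap, and the log2 fold change was 0.85 (SE 0.09, adjusted p = 0.0232 in limma over genes and 0.0433 over probe sets). Its dimmer probe sets, 1456149_at and 1427286_at, gave 0.26 and 0.32, higher in 2 of 3 pairs each, and did not pass. Rbfox1 read 40.9, 49.6 and 41.8 in RA and 108, 88.3 and 82.4 with Ag1.3 (1418314_a_at), again without overlap. Its log2 fold change was 0.86 (SE 0.11, adjusted p = 0.0370 over genes and 0.0649 over probe sets). The probe set 1455358_at also read higher in all 3 pairs, at 0.68 with adjusted p = 0.0923 over probe sets. It was dim, and its RA values of 16.1 and 16.4 in replicates 2 and 3 lay in the range of the unspiked controls. The other 2 Rbfox1 probe sets lay in the range of the unspiked controls on all arrays. Rbfox2 read 261, 197 and 225 in RA and 296, 192 and 218 with Ag1.3 (1418245_a_at), with overlapping groups. Its log2 fold change was 0.03 (95% interval -0.18 to 0.24, adjusted p = 0.907), and its other 3 probe sets gave 0.03, 0.11 and 0.18, none past the threshold in limma.

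Over all 32 probe sets, 7 rose and 0 fell in limma's test, where 0.426% of all probe sets rose and 0.0888% fell. They were the 3 of Elavl3, the 3 of Elavl4 and 1 of Rbfox3. At an unadjusted p under 0.05 there were 17, against 11.6% of all probe sets. In 12 of the 32 every Ag1.3 array was above every RA array, which held for 5.8% of all probe sets, and in 0 the reverse (5.42%). In 17 the Ag1.3 culture was higher in all 3 pairs (15.5% of all probe sets) and in 2, both of Elavl1, lower in all 3 (17.7%). The probe sets of a gene share its message, so they are not replicates.

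The calls other than Elavl4 rest on all 3 pairs. Without pair 1, 2 or 3, only Elavl4 of the 9 genes passed in limma, each time, and 0 of 32 probe sets passed, with 16, 15 and 17 at an unadjusted p under 0.05, against 3027, 3623 and 5969 of all 45037. Without the replicate block, which compares the groups without using the pairs, Elavl4 and Rbfox1 passed, and with the mean over all probe sets of a gene Elavl3 and Elavl4 passed. With a pseudocount of 1 in limma 0 of the 9 passed, with 6 at an unadjusted p under 0.05. The calls over all features fell in these settings as well. Of all 18193 genes 40, 50 and 68 passed without pair 1, 2 or 3, and of all 45037 probe sets 12, 0 and 0. Without the block 87 genes passed, and with the mean over probe sets 214. With a pseudocount of 1, 0 of all genes passed in limma, with 2412 at an unadjusted p under 0.05.

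Differences between relatives were set out pair by pair, as the change of one gene minus that of another. Elavl4 exceeded Elavl1 by 1.69, 1.82 and 1.86 on the log2 scale in pairs 1 to 3, and Elavl3 exceeded it by 0.81, 1.13 and 1.07. Rbfox3 exceeded Rbfox2 by 0.87, 0.80 and 0.79 and Rbfox1 exceeded it by 0.96, 0.70 and 0.81. Nova1 was below Nova2 in every pair, with differences of -0.99, -1.23 and -0.89. Elavl2 exceeded Elavl1 by 0.20, 0.42 and 0.66. For all 6 comparisons the exact sign-flip permutation test over the 3 pairs gave p = 0.25 (two-sided), also after Benjamini-Hochberg adjustment, and this is the smallest p that 3 pairs allow. With the mean of all probe sets the difference of Elavl2 and Elavl1 turned to -0.02 (exact p = 0.75). Under the same setting the mean difference of Rbfox1 and Rbfox2 went from 0.82 to 0.33, that of Rbfox3 and Rbfox2 from 0.82 to 0.39 and that of Nova1 and Nova2 from -1.04 to -0.56, with each pair keeping its sign. With a pseudocount of 64 that of Rbfox1 and Rbfox2 was 0.51.

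The neuron markers give a measure of how neuronal genes moved in the same cultures. Of 18 markers, 10 rose and 0 fell in limma's test. At an unadjusted p under 0.05 there were 17, of which 16 read higher and Dpysl3 lower. The genes that rose included Nefm and Stmn2, a neurofilament subunit and a regulator of axonal microtubules, and the filament protein Ina. Nefm went from 403 ± 122 to 1333 ± 236, Stmn2 from 239 ± 34.4 to 733 ± 136 and Ina from 346 ± 52.5 to 924 ± 220 (SD, n = 3 each). Without pair 1, 2 or 3, 4, 6 and 5 of the 18 markers passed, and without the replicate block 5. The summed intensity of the 18 was 4034 to 7034 in RA and 9035 to 13156 with Ag1.3, and each read above the unspiked controls on at least 1 array. The median log2 change of the markers was 1.17, 1.06 and 1.15 in pairs 1 to 3. Elavl4 changed by 0.59, 0.56 and 0.56 more than that median, and exceeded 17 of the 18 markers in log2 fold change. On the scale of intensity + 16, Elavl3, Nova2, Rbfox1 and Rbfox3 lay below the median in every pair, above 5 or 6 of the markers. For Rbfox1 the difference in pair 1 was only -0.04. This scale understates changes of dim probe sets, and Rbfox1 and Rbfox3 were dimmer than most of the markers. Whether their place below the median holds with another pseudocount was not tested. Not all neuronal markers moved with the members that rose. Syt1, a synaptic vesicle protein, read 110 and 101 on average. Dpysl3, a cytoskeletal protein of growing axons, read 1799 and 1538 and was lower with Ag1.3 in all 3 pairs. Neither passed the threshold.

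**Figure D3:**
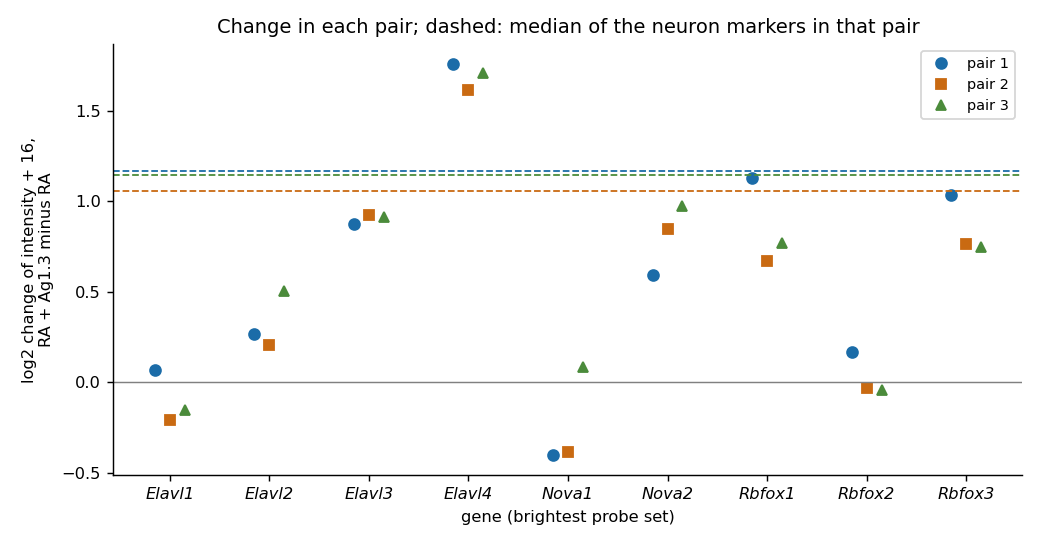
Log2 change of intensity + 16 (RA + Ag1.3 minus RA) of the brightest probe set of each gene in each of the 3 pairs, with dashed lines at the median of the 18 neuron markers in that pair. Elavl4 lies above the lines in all 3 pairs, and the other 8 genes lie below the line of their pair. Rbfox1 in pair 1 lies close to its line (difference -0.04).

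Levels also differed between the pairs, in both groups. Of the 21 member probe sets with a mean at or above the median probe set, 16 read lowest in replicate 3 in both groups, against 23.0% of all 22519 such probe sets. Replicate 3 had the lowest summed neuron markers in each group (4034 and 9035) and the highest summed pluripotent cell markers (8244 and 6334, against 5021 and 7284 in the other RA cultures and 3186 and 4678 in the other Ag1.3 cultures). Of the 8 pluripotent cell markers all read lower with Ag1.3, 1 of them, Pou5f1, past the threshold (348 ± 126 to 215 ± 97.6) and 7 at an unadjusted p under 0.05, and the whole list ran from 5021 to 8244 in RA and from 3186 to 6334 with Ag1.3. Of 12 neural progenitor markers, Notch1 rose and the others did not pass. In limma 5 of them had an unadjusted p under 0.05, all higher with Ag1.3. The log2 fold change was above 0 for 9 of the 12 and below 0 for 3. Their sums were 10256 to 15435 in RA and 11946 to 15905 with Ag1.3. Of 9 endoderm markers Sox17 and Krt8 fell, and 3 had an unadjusted p under 0.05 in limma, all lower. The list did not move as a whole, with 4 genes above 0, 5 below and a median log2 fold change of -0.03. Its sums were 591 to 1271 in RA and 454 to 967 with Ag1.3, and Apoa1 read no higher than the unspiked controls. Glia markers (0 of 6 past the threshold in limma, 1 at an unadjusted p under 0.05, sums of 453 to 517 and 521 to 621) and muscle markers (0 of 6, 0 unadjusted, sums of 125 to 131 and 115 to 121, with Tnnt2 and Myh6 no higher than the unspiked controls) did not pass. The glia genes of lowest p were Mbp, a myelin protein, which read 218 ± 16.6 and 294 ± 11.6 (log2 fold change 0.41, adjusted p = 0.0872), and Aldh1l1 (-0.12), and the muscle genes Des (-0.25) and Nkx2-5 (0.10). The part of the cell mixture in the changes of Elavl, Nova and Rbfox genes was not tested.

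Other RNA-binding proteins of neurons and progenitors were read from the same limma test over all genes. In it 1.08% of all genes rose, 0.324% fell and 14.9% had an unadjusted p under 0.05. Of 10 further regulators of neuronal splicing 1 rose, Celf3, a neuronal member of the CELF family, from 89.6 ± 35.9 to 237 ± 46.2 (log2 fold change 1.31, SE 0.16, adjusted p = 0.0359). The median of this list was 0.18. In limma 4 of the 10 had an unadjusted p under 0.05, of which Khdrbs3 was lower and the others higher. Srrm4, which drives inclusion of neuronal microexons, read 102 and 133 on average and Ptbp2, the neuronal polypyrimidine tract protein, 1764 and 1954, neither past the threshold. Khdrbs3 was the 1 member below 0, at -0.24 with adjusted p = 0.244. Of 12 splicing regulators of progenitors and other cells 0 passed in limma, with 4 at an unadjusted p under 0.05. Esrp1, the epithelial splicing regulator, read 153 ± 55.6 and 92.0 ± 62.7, which is -0.75 on the log2 scale (adjusted p = 0.0917), and Celf2 203 ± 5.72 and 251 ± 25.2. Ptbp1, which represses neuronal exons in progenitors, read 1855 and 1745 on average, a difference of -0.09 on the log2 scale with adjusted p = 0.728.

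Of 7 proteins that bind AU-rich elements as Elavl proteins do, many of them promoting decay, 0 passed and 0 had an unadjusted p under 0.05 in limma, and the lowest p belonged to Zfp36l1 and Tial1, with log2 fold changes of -0.11 and 0.13. Of 12 measured proteins of message localisation and translation 2 rose, both of them cytoplasmic polyadenylation element binding proteins. Cpeb2 went from 88.0 ± 7.32 to 206 ± 15.8 (log2 fold change 1.09, adjusted p = 0.0116) and Cpeb4 from 175 ± 20.2 to 393 ± 55.9 (1.09, adjusted p = 0.0265). Their relatives Cpeb1 and Cpeb3 gave -0.18 and 0.29 and did not pass. Among 4 measured messages known to be bound by neuronal Elavl proteins, Mapt, the microtubule protein tau, rose from 66.4 ± 14.5 to 190 ± 23.6 (adjusted p = 0.0177), Gap43, a growth cone protein, gave 1.23 with adjusted p = 0.108, Cdkn1a gave 0.09, and Ache read no higher than the unspiked controls. With pair 1, 2 or 3 left out, Celf3, Cpeb2 and Cpeb4 did not pass, nor did Notch1, Pou5f1, Sox17 and Krt8, while Mapt passed only without pair 3. Without the replicate block Cpeb2, Cpeb4 and Mapt passed and the other 5 did not. Mapt and Gap43 are also neuron markers, so this list does not stand apart from them.

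**Figure D4:**
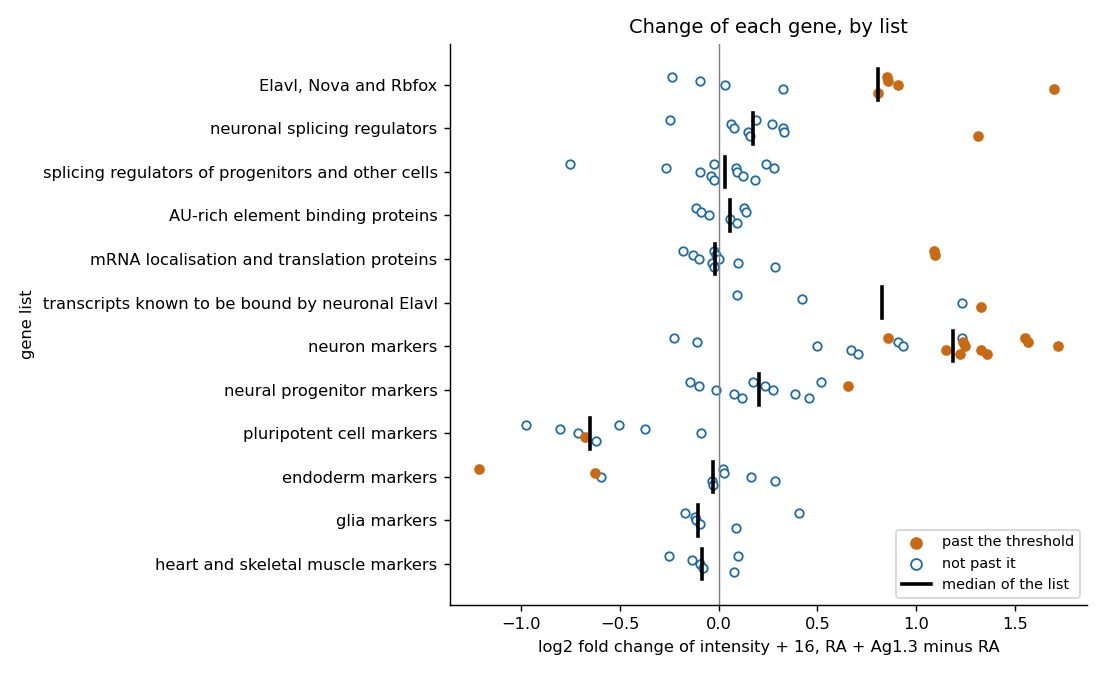
Log2 fold change of intensity + 16 (RA + Ag1.3 minus RA) of each measured gene in the 9 Elavl, Nova and Rbfox genes and 11 fixed lists, with filled points past the threshold over 18193 genes and a black bar at the median of each list. The Elavl, Nova and Rbfox genes have a median of 0.81, the neuron markers 1.19, and the 4 lists of other RNA-binding proteins between -0.02 and 0.18.

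For each of the 5 genes that rose, the genes with the most similar course over the 6 arrays were sought among 11441 genes with a mean at or above the median probe set, by the root mean square difference of centred log2 values. Elavl4, whose own values had a root mean square of 0.90 around their mean, was closest to Gpm6b, a membrane glycoprotein of neurons and glia (difference 0.048), Nefm (0.11) and Olfml3 (0.12). Elavl3 was closest to Sfrp1, a secreted Wnt modulator (0.060), Zswim5 (0.072) and Zbtb18, a transcriptional repressor of neural development (0.072). Nova2 was closest to Ints6, a subunit of the Integrator complex (0.044), Zswim5 (0.080) and Tspyl4 (0.083). Rbfox1 was closest to Snx18 (0.051), Cnst (0.077) and Nfasc, an adhesion protein of the axon (0.084), and Rbfox3 to Plk3 (0.071), Trp53i11 (0.076) and Zswim5 (0.081). Zswim5 was thus among the 3 nearest for 3 of the 5, and these values describe 6 arrays that share the treatment.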

How the data were processed

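Biotin-labelled cRNA of 6 cultures was hybridised to 1 array each, per the labels. The authors deposited an intensity per probe set, on a linear scale. How the authors summarised and scaled them is not given in the sources used here. Array medians were 48.68 to 52.55. Hybridization spikes read 0.19 higher (log2) with Ag1.3. Of 45037 probe sets other than controls, 34945 had 1 symbol, 932 several and 9160 were not listed in the platform annotation. Each of the 18193 genes was represented by the probe set with the highest mean, and levels of different probe sets were not tested against each other.

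Intensities were taken to log2(intensity + 16), which understates changes of dim probe sets, and limma 3.58.1 under R 4.3.3 was used for all tests across features (lmFit, eBayes; two-sided; Benjamini-Hochberg; threshold 0.05) with the replicate number as a block, over all genes and over all probe sets. Differences between relatives had an exact sign-flip test over pairs. The code was tested on simulated data. SDs are of intensities, SEs are limma's. Deviations from group means correlated at 0.74, 0.33 and 0.73 for same-numbered arrays (genes are not independent), and the series text gives the pairing. P-values measure the spread between 3 pairs of cultures of 1 line, and the number of arrays limits precision. Named were all members, from each list at most 3 genes that passed, or 2 of lowest p where none did, and the 3 nearest genes of each called member. Syt1, Dpysl3, Srrm4, Ptbp1, Ptbp2, Khdrbs3, Cpeb1, Cpeb3, Gap43, Cdkn1a, Ache, Apoa1, Tnnt2 and Myh6 were added after their values were seen. Members and lists were chosen with earlier results of these data known. Other pseudocounts, filters, scalings, summaries and left-out pairs were tried.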

Additional observations from a re-analysis of the deposited data

How the results depend on the processing

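Elavl3, Elavl4, Nova2, Rbfox1 and Rbfox3 kept their direction in all 11 alternatives over genes, and passed in 6, 10, 5, 6 and 5 of them. Their log2 fold changes ran from 0.73 to 1.01, 1.51 to 1.81, 0.46 to 0.91, 0.42 to 1.06 and 0.48 to 0.998. Over all genes 256 were called (197 higher, 59 lower) and over all probe sets 232. With a pseudocount of 1 limma called 0 of either, with 2412 genes and 4601 probe sets at an unadjusted p under 0.05, and so 0 member genes (6 unadjusted) and 0 member probe sets (15 unadjusted). With a pseudocount of 64 it called 819 genes, 839 probe sets and 11 member probe sets. Among features at or above the median probe set the counts were 952, 1155 and 12, where fewer features were tested. That filter took the mean over all 6 arrays. Rbfox1 1418314_a_at (44.1 in RA, 93.1 with Ag1.3) and Elavl3 1452524_a_at (25.8 and 83.3) reached 50.94 only through the Ag1.3 group. Their calls in this setting therefore add no support. With a prior variance that follows intensity the counts were 888, 1118 and 14, and 6 member genes passed, Elavl2 being the added one. Of the 18 neuron markers 10 passed, and 0 to 16 in the alternatives, and of the 8 pluripotent cell markers 1 and 0 to 7. Scaling to the spikes moved the median of all genes to -0.16, so that 1666 genes (286 higher, 1380 lower), 1539 probe sets and 11 member probe sets were called. The same 5 member genes passed there, and relative to that median their direction held. Without the replicate block, which drops the pairing, 87 genes, 108 probe sets, 2 member genes and 1 member probe set passed. With the mean of all probe sets 2 member genes passed. Without replicate 1, 2 or 3 the counts ran from 40 to 68 genes and 0 to 12 probe sets, with 1 member gene each time and 0 member probe sets in limma, and fewer samples entered the fit. Where not stated, the cause was not tested.

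The probe sets and genes whose value changed sign had not passed in the main setting. With 1 pair left out in turn, log2 fold changes ran from -0.038 to 0.068 for Rbfox2, from -0.010 to 0.081 for its probe set 1434938_at and from -0.024 to 0.281 for 1418246_at. They ran from -0.27 to 0.097 for 1454454_at and from -0.15 to 0.082 for 1433052_at, both of Elavl2. They ran from -0.016 to 0.070 for 1452245_at of Nova1, and for Rbfox1 from -0.12 to 0.201 for 1447735_x_at and from -0.029 to 0.199 for 1438217_at. Scaled to the spikes, Rbfox2 read -0.15, 1434938_at -0.14, 1418246_at -0.018, 1452245_at -0.070 and 1447735_x_at -0.010. With the mean of all probe sets Elavl1 read 0.23, and Elavl2 minus Elavl1 -0.023. The alternatives of the differences between relatives were chosen after seeing the data. Probe sets near the unspiked controls are limited by background.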
